A study of Homo sapiens
Mus musculus and Mus musculus and Homo sapiens with 16 samples.

Results

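Interferon-stimulated genes were followed in mantle cell lymphoma cells and in the stromal cells they grew with. A list of 50 gene symbols was used, running from ISG15, the IFIT, MX and OAS families and the guanylate-binding proteins to the IFITM membrane proteins and the immunoproteasome subunits PSMB8 and PSMB9. All 50 were rows among the 58051 genes of the human count table, and 42 were found, ignoring case, among the 49671 genes of the mouse table. The mouse table held no row under IFIT5, OAS1, OASL, IFI6, HERC5, SAMD9, TRIM22 or GBP1.

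REC-1 is a human mantle cell lymphoma line and MS-5 is a mouse bone marrow stromal line, so each stands for its cell type by a single line. REC-1 cells were cultured alone (Sep), taken from the suspension above MS-5 (Susp), or extracted together with the MS-5 layer they adhered to (Adh), and MS-5 cells were also cultured alone. RNA was taken after 24 h, with 4 libraries in each of the 4 groups. The Adh libraries are mixtures of both species, and their human counts describe the adhered REC-1 cells and their mouse counts the MS-5 cells under them. The study's legends describe same-group libraries as independent experiments, and the labels give each a replicate number and a sample code whose number is shared across groups. The labels give αMEM-glutamax medium for monocultures and cocultures alike.

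Type I and III interferons bind receptors on the cell surface and activate the kinases JAK1 and TYK2. They then lead to a complex with STAT2 and IRF9 that binds the interferon-stimulated response element (ISRE). Interferon gamma acts through the gamma-activated site (GAS). The induced proteins block viral entry, degrade or sequester foreign RNA, raise antigen processing, and feed back on the pathway. Many of them are also transcribed at a basal level without added interferon, and the labels name no added interferon.

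The ISRE core (GAAA, any 2 bases, GAAA) was searched on both strands in the 250 bases before the start of each gene, in the GRCh38 genome with GENCODE starts. It was present before 26 of the 50 members (52.0%), against 2.85% of 19616 protein-coding genes. The GAS core (TTC, any 3 bases, GAA) was present before 12 members (24.0%), against 5.65% of all. Windows of 60 bases are shown for members whose behaviour differed in the libraries: ISG15 and IFIT1, which are textbook interferon targets, IFITM1 and BST2, which were called in REC-1 cells, and IRF9 and PSMB8, which hold a GAS match and no ISRE match. Each is written 5′ to 3′ on the gene's strand, and capitals mark the ISRE matches or, for IRF9 and PSMB8, the GAS match.
ISG15: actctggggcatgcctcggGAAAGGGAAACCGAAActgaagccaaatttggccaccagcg
IFIT1: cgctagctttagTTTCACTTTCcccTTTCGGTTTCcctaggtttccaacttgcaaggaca
IFITM1: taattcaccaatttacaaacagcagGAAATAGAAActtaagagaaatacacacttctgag
BST2: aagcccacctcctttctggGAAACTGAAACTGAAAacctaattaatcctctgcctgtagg
IRF9: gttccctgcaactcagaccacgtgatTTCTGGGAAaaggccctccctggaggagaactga
PSMB8: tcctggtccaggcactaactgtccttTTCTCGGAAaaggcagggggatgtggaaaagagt
These lie at chr1:1013365-1013424, chr10:89392495-89392554, chr11:313975-314034, chr19:17405720-17405779, chr14:24161176-24161235 and chr6:32844079-32844138, with BST2 and PSMB8 on the minus strand and the other 4 on the plus strand. In ISG15 and BST2 the capitals cover overlapping ISRE matches, and in IFIT1 they cover 2 matches read on the opposite strand. The searched window of BST2 also holds 2 GAS matches, of which 1 runs into the first capitals shown, and that of IFITM1 holds 1. MX2, IFITM2 and STAT2 had neither core in their window, which says only that these letters are not there.

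Between 7758979 and 21467832 human counts were available per REC-1 library. Mouse counts ran from 10097555 to 17397651 for MS-5 alone and from 29495404 to 34615602 for Adh. REC-1 libraries expressed MS4A1, CD79A, CD79B, PAX5 and CCND1, with group means of 1439 to 1639 CPM (counts scaled to library size) for CCND1, and the stromal markers had at most 6 counts in any library. Of the plasmacytoid dendritic markers, LILRA4 had group means of 157 to 280 CPM while CLEC4C stayed at or below 4 counts. MS-5 libraries expressed Col1a1, Col1a2 and Pdgfrb, had no Ptprc count, and also had no count for the stromal marker Thy1. Mouse counts of MS-5 alone and of Adh also held the myeloid marker Cd14, at means of 25.2 and 23.0 CPM. Il3ra, listed as a plasmacytoid dendritic marker, had 11.9 and 13.1 CPM, and Ccnd1, listed for the lymphoma, had 317 and 277 CPM. For 50 genes abundant in MS-5 and near absent in Sep cells, human counts in the Adh libraries were at most 0.0285% of the mouse counts. For 50 genes chosen the other way round, mouse counts were at most 0.373% of the human counts. The mitochondrial share of human counts was 0.566 ± 0.14% in Adh libraries (SD, n = 4), against 1.73 ± 0.20% for Sep and 1.74 ± 0.36% for Susp. Whether this difference has a part in the results for adhered cells was not tested.

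Susp replicate 2 stood apart from the other Susp libraries in a way that followed gene length. Its median deviation from the group was 0.26 (log2) for the genes with the shortest exons and −0.31 for those with the longest. Over 38 members tested, its difference from the other 3 Susp libraries on the log2(CPM + 1) scale ranged from −1.02 for SAMD9 to 0.82 for ISG15, and Spearman's rho with exon length was −0.60, a description across genes measured in the same libraries. All 5 members with under 5000 exon bases and a mean of at least 10 CPM were higher in it, and 10 of 12 longer ones were lower. IFITM1, IFITM2, BST2 and PSMB8 are among the short genes, so the Susp differences of called members and of those with the smallest p are given with and without this library. The Susp values of the other members include it.

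In REC-1 cells the interferon-stimulated genes covered a wide range of levels, and RSAD2, IFIT1 and several guanylate-binding proteins were close to absent. After a filter on low counts, 38 of the 50 members could be tested. Levels between genes are given as RPKM, reads scaled to exon length and library size, and their median over the 38 was 1.65 RPKM. The exon lengths come from another annotation than the counts, so RPKM can be too low where they are longer. The highest was ADAR, which edits adenosine in double-stranded RNA, at 42.7 RPKM over the 12 libraries, above 92.4% of all tested genes. BST2, or tetherin, which holds budding virus at the cell surface, followed at 37.1 RPKM, and IFITM2, a membrane protein that hinders viral fusion, at 24.5 RPKM. In Susp cells the mean of BST2 (47.7 ± 10.5 RPKM) lay above that of ADAR (39.8 ± 6.10 RPKM), but this order rested on replicate 2, with 63.4 RPKM for BST2 and 30.8 RPKM for ADAR. In the other 3 Susp libraries both genes lay within 41.8 to 43.98 RPKM.

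ADAR gave 598, 555, 545 and 543 CPM in the Sep libraries, 522, 377, 538 and 513 CPM in Susp, and 525, 539, 517 and 506 CPM in Adh. The value of 377 CPM belonged to Susp replicate 2, and ADAR has long exons (12242 bases in all). The lowest tested members were OAS3, a synthase of 2′-5′ oligoadenylates, at 0.0541 RPKM, IFI44L at 0.0664 RPKM and GBP2, an interferon-inducible GTPase, at 0.147 RPKM. OAS3 had 10, 7, 18 and 7 counts in Sep, 22, 10, 22 and 32 in Susp, and 4, 8, 8 and 4 in Adh. IFI44L had 8, 16, 0 and 6 counts in Sep, 18, 4, 15 and 4 in Susp, and 6, 6, 16 and 10 in Adh. The 0 in Sep replicate 3 allows up to 0.314 CPM, and this floor covers counting error only. GBP2 had 16, 12, 9 and 20 counts in Sep, 30, 28, 14 and 4 in Susp, and 8, 12, 8 and 4 in Adh. At such counts only large differences could have been seen.

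The 12 members below the filter were USP18, OASL, XAF1, IFI44, IFIT1, IFI27, HERC5, RSAD2, IFIT2, GBP1, GBP5 and GBP4. RSAD2, or viperin, had at most 4 counts in any library and none in 7 of 12. IFIT1, which binds viral RNA ends, had at most 14 counts, and GBP4 had 2 counts in a single library. USP18, the protease that removes ISG15 from proteins and dampens the receptor, had at most 12. Of these 12 genes 8 carry the ISRE core in the window searched, and of the 38 tested genes 18 do. The RNA sensors were tested at 2.64 RPKM for IFIH1 (MDA5), 0.821 RPKM for DDX58 (RIG-I) and 0.315 RPKM for DHX58 (LGP2). ISG15, the ubiquitin-like modifier, stood at 5.77 RPKM, and the transcription factors at 8.80 for STAT2, 5.32 for IRF7, 2.74 for IRF1 and 0.371 RPKM for IRF9.

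MS-5 cells expressed another set of these genes at high level. Of the 42 mouse members, 29 could be tested, with a median of 3.82 RPKM. Ifitm3 was the highest at 243 RPKM, above 99% of all tested mouse genes, and Ifitm2 (61.7 RPKM) and Eif2ak2 (25.0 RPKM), the RNA-activated kinase PKR, came next. The lowest tested were Xaf1 (0.171 RPKM), Irf7 (0.234 RPKM) and Dhx58 (0.353 RPKM). The 13 below the filter were Ifit1, Usp18, Ifi44, Mx2, Oas2, Ifitm1, Oas3, Epsti1, Mx1, Cmpk2, Rsad2, Ifi44l and Gbp5. The last 3 had no count in any of the 8 libraries, which allows at most 0.0863 to 0.299 CPM per library.

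**Figure D1:**
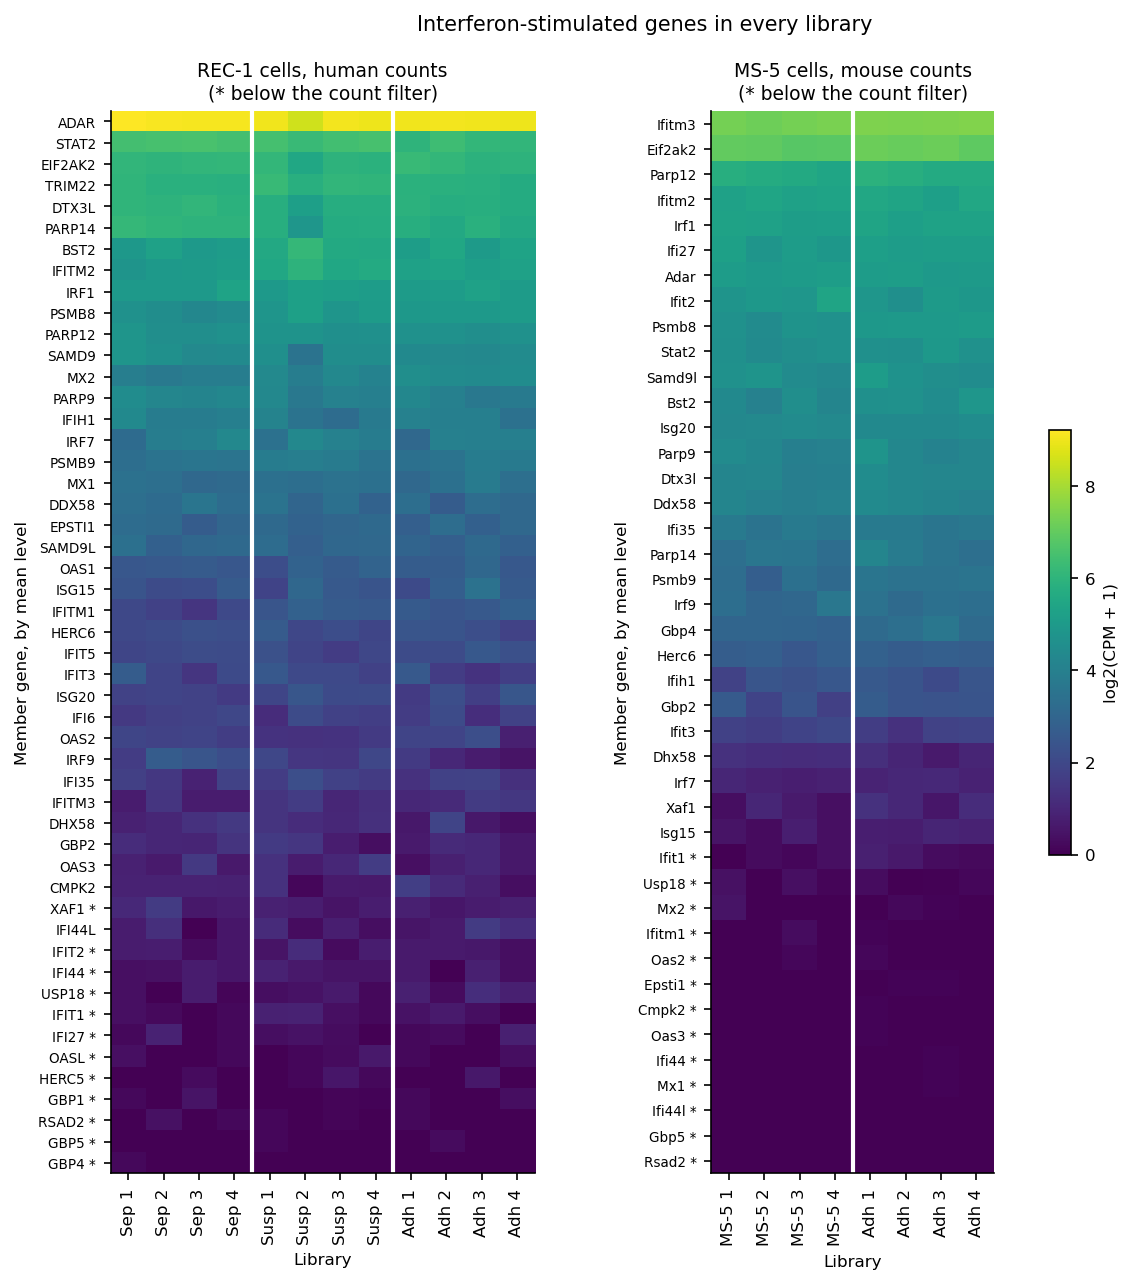
Level of every member in every library as log2(CPM + 1), with REC-1 libraries (human counts) on the left, MS-5 and Adh libraries (mouse counts) on the right, genes ordered by mean level and asterisks on members below the count filter. ADAR leads in REC-1 and Ifitm3 in MS-5, and the lower rows are near 0 in all libraries.

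The same symbols differed between the species in the Adh libraries, where both cell types are read from the same RNA. The tables were counted and scaled separately, so values are only set side by side. The exon lengths behind RPKM also differ between the species. They are 2844 bases for human IFITM3 and 678 for mouse Ifitm3, and 17984 for MX1 and 3785 for Mx1. IFITM3 stood at 0.533 ± 0.17 RPKM in human counts and at 256 ± 4.02 RPKM in mouse counts (SD, n = 4). IFI27 stood at 0.0671 RPKM in human and 23.4 RPKM in mouse counts, and IFIT2 at 0.113 and 7.06 RPKM. At the highest rate of mouse reads counted as human in the species check, mouse reads could make up 11.4% of the human IFITM3 counts. The share would be 12.7% for IFI27 and 5.14% for IFIT2.

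The order was the other way for the MX proteins, dynamin-like GTPases that trap viral components, and for IFITM1 and EPSTI1. MX2 stood at 1.47 ± 0.064 RPKM in human counts and had 6 mouse counts over the 4 Adh libraries. MX1 stood at 0.554 ± 0.135 RPKM with 2 mouse counts, IFITM1 at 3.11 ± 0.43 RPKM with 2, and EPSTI1 at 1.46 ± 0.287 RPKM with 4. At the highest rate of human reads counted as mouse, human reads could make up 70.3% of the mouse counts of Mx1. The share would be 52.6% for Mx2, 37.5% for Ifitm1 and 26.1% for Epsti1. IRF7, a factor that amplifies interferon production, stood at 5.02 ± 1.39 RPKM in human and 0.253 ± 0.0324 RPKM in mouse counts. PSMB8 was at 8.74 ± 0.35 and 9.04 ± 0.46 RPKM, and BST2 at 33.9 ± 5.03 and 26.9 ± 2.82 RPKM.

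**Figure D2:**
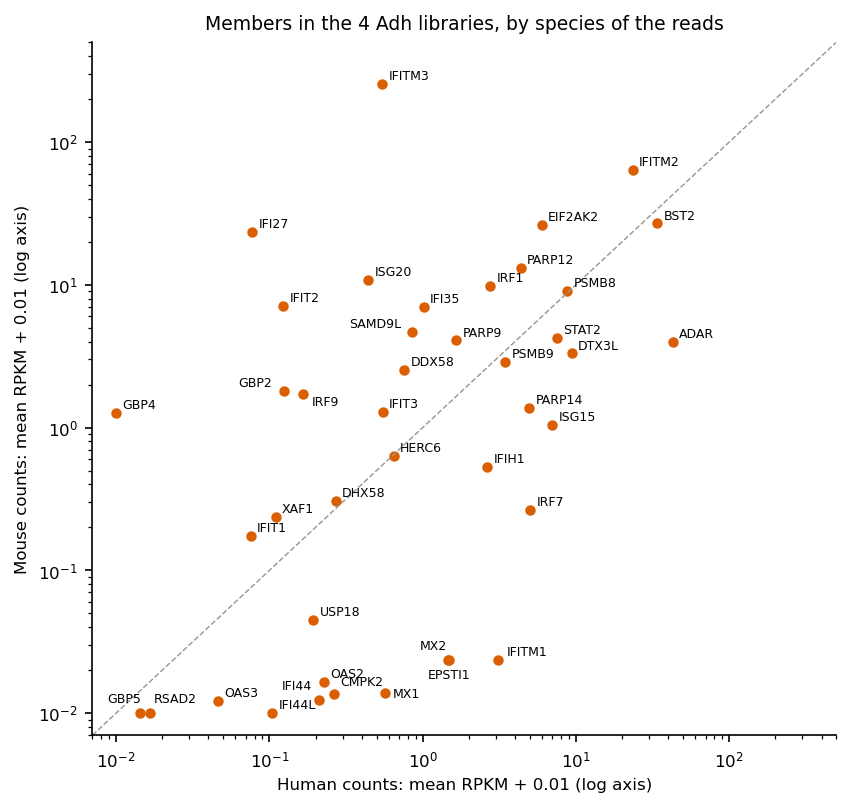
Mean RPKM of the 42 members with a symbol in both species, matched by symbol alone, in the 4 Adh libraries. Human counts are on the horizontal and mouse counts on the vertical axis, both logarithmic with 0.01 RPKM added, and a dashed line marks where both are equal. IFITM3, IFI27 and IFIT2 lie far above the line, MX1, MX2, IFITM1 and EPSTI1 far below it, and PSMB8 and BST2 near it.

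Each comparison asked whether contact with stroma, or sharing its medium, went with a change of these genes. Genes were called at an adjusted p of at most 0.05 (edgeR's quasi-likelihood test, Benjamini-Hochberg over all genes tested) with a fold change of at least 1.5. Susp and Adh cells were both compared with the same 4 Sep libraries, so these comparisons share their control. Members and the other lists were chosen with earlier results of these data known. Shares of all genes are therefore set beside theirs as description, and an excess was not tested. In bulk RNA, fewer cells with a transcript and less of it per cell cannot be told apart.

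REC-1 cells in suspension over MS-5 had more transcript of 3 interferon-stimulated genes for membrane proteins than cells cultured alone. None of the 38 tested members was called lower. The called members were IFITM1, IFITM2 and BST2, all of short exon length. That is 3 of 38 (7.89%), where 0.731% of all 12861 tested genes were called, 0.428% higher and 0.303% lower. At an unadjusted p under 0.05 there were 8 members (21.1%), against 16.7% of all genes. Values did not overlap between the groups for 5 members that were higher and 4 that were lower (23.7%), against 5.5% and 5.85% of all genes (11.3% in all). The median log2 fold change of the members was 0.02, against −0.01 for all genes. The call depended on Susp replicate 2: without it no member was called, although IFITM2 and BST2 still had adjusted p-values of 0.0057 and 0.0363 with smaller differences.

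IFITM1, a fusion-blocking protein of the plasma membrane, gave 2.99, 2.43, 1.67 and 3.11 CPM in Sep and 4.45, 6.33, 5.27 and 4.97 CPM in Susp. All Susp libraries were above all Sep libraries. The increase was 1.03 on the log2 scale (SE 0.22, adjusted p = 0.0298), a fold change of 2.04 with a 95% interval of 1.47 to 2.81. Without Susp replicate 2 the log2 fold change was 0.92 with an adjusted p of 0.0697. Counts were low, from 16 to 39 in Sep and from 67 to 109 in Susp.

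IFITM2 gave 26.5, 31.0, 31.4 and 34.1 CPM in Sep and 44.01, 61.0, 44.2 and 48.8 CPM in Susp. These groups did not overlap either. The increase was 0.69 on the log2 scale (SE 0.12, adjusted p = 0.00667), or 1.61-fold with an interval of 1.35 to 1.92. Without Susp replicate 2 the log2 fold change was 0.56, below the fold minimum. BST2 gave 29.0, 37.6, 30.5 and 33.6 CPM in Sep and 46.7, 69.8, 47.5 and 46.1 CPM in Susp. The Susp libraries were all higher, and replicate 2 was the highest by far. The increase was 0.68 on the log2 scale (SE 0.15, adjusted p = 0.0294), and without that library it was 0.51.

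Single libraries decided these calls in other cases too. IFITM1 was not called without Sep replicate 2 (adjusted p = 0.11, log2 fold change 1.001), Sep replicate 3 (0.107 and 0.89), Susp replicate 3 (0.0836 and 1.03) or Susp replicate 4 (0.0643 and 1.05). BST2 was not called without Sep replicate 1 (0.0902 and 0.64), Sep replicate 3 (0.108 and 0.66) or Sep replicate 4 (0.0674 and 0.70). Of the single libraries, leaving out Susp replicate 2 was the only case in which IFITM2 lost its call. With a trend on exon length removed from each library, an alternative chosen after seeing the data, the log2 fold changes were 0.85 for IFITM1 (adjusted p = 0.0574), 0.51 for IFITM2 (adjusted p = 0.00696) and 0.52 for BST2 (adjusted p = 0.0324), and none passed both thresholds. IFITM1, IFITM2 and IFITM3 are neighbours on chromosome 11 of closely similar sequence. The counts rest on uniquely mapped reads, so their division among these paralogs is uncertain. In GENCODE, IFITM1 also shares 21.1% of its exon bases with ENSG00000288681. Whether the annotation used for counting holds this overlap was not tested.

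The next members by p-value were PSMB8, an immunoproteasome subunit that shapes peptides for MHC class I, and PARP14, a mono-ADP-ribosyltransferase. PSMB8 gave 24.6, 21.9, 18.2 and 20.9 CPM in Sep and 26.9, 36.5, 27.1 and 32.2 CPM in Susp. The log2 difference was 0.52 with an adjusted p of 0.0578. Without Susp replicate 2 it was 0.41 with an adjusted p of 0.107, and without Sep replicate 1 it was 0.59 with an adjusted p of 0.0486, which passed. In GENCODE, PSMB8 shares 17.3% of its exon bases with PSMB8-AS1. The library kit did not keep strand, so reads from shared bases cannot be told apart. PARP14 gave 70.5, 64.2, 60.9 and 62.0 CPM in Sep and 54.1, 27.6, 50.6 and 51.0 CPM in Susp. The log2 difference was −0.49 with an adjusted p of 0.159, or −0.32 without Susp replicate 2, where PARP14 had its lowest value.

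REC-1 cells adhered to MS-5 had more MX2 and IFITM1 and less IRF9 than cells cultured alone. These 3 of 38 members (7.89%) were called, where 2.4% of all tested genes were (0.583% higher and 1.82% lower), and 2 were higher and 1 lower. At an unadjusted p under 0.05 there were 6 members (15.8%), against 20.2% of all genes. Values did not overlap for 4 members that were higher and 4 that were lower (21.1%), against 7.42% and 8.3% of all genes (15.7% in all). The median log2 fold change of the members was −0.03, against −0.00 for all genes. A further 2 members, PSMB8 and STAT2, passed the adjusted p but not the fold minimum. On the adjusted p alone 5 of 38 members passed, where 3.41% of all genes did. All 3 calls were absent without Sep replicate 2, where 143 genes in all were called instead of 309.

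MX2, which restricts virus at the nuclear pore, gave 14.4, 12.3, 13.9 and 14.1 CPM in Sep, 19.1, 13.9, 18.9 and 15.8 CPM in Susp, and 22.7, 21.0, 20.6 and 21.3 CPM in Adh. Each Adh library was above every Sep and every Susp library. Against Sep the increase was 0.65 on the log2 scale (SE 0.13, adjusted p = 0.0101), a fold change of 1.56 with an interval of 1.30 to 1.89. MX2 lost its call without Sep replicate 2 (adjusted p = 0.0523, log2 fold change 0.60) and kept it in the other 17 alternatives. Its close relative MX1 ranged from 7.74 to 9.84 CPM in Sep and from 7.59 to 13.4 CPM in Adh, with a log2 difference of 0.17 and an interval of −0.19 to 0.53.

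IFITM1 gave 5.11, 4.43, 5.01 and 6.16 CPM in Adh, beside the 1.67 to 3.11 CPM of Sep. The groups did not overlap, and the increase was 0.999 on the log2 scale (SE 0.23, adjusted p = 0.0240). Leaving out Sep replicate 2, Sep replicate 3, Adh replicate 1 or Adh replicate 4 took the adjusted p to between 0.0556 and 0.0849, with log2 fold changes of 0.86 to 1.004. Between Adh and Susp its log2 difference was −0.03, with an interval of −0.47 to 0.42.

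IRF9, the DNA-binding subunit of the ISRE complex, gave 2.13, 5.44, 4.39 and 3.59 CPM in Sep, 2.92, 1.72, 1.69 and 2.89 CPM in Susp, and 1.95, 1.06, 0.642 and 0.385 CPM in Adh. The Adh libraries were all below the Sep libraries and overlapped the Susp libraries. Against Sep it fell by 1.83 on the log2 scale (SE 0.42, adjusted p = 0.0249), to 0.282 of the level, with an interval of 0.152 to 0.521. The counts were few, 27, 65, 42 and 45 in Sep and 26, 11, 5 and 3 in Adh. In GENCODE, IRF9 shares 23.9% of its exon bases with ENSG00000259529. The call held without Sep replicate 1 or Adh replicate 1 and was lost without any of the other 6 libraries, where the adjusted p was 0.053 to 0.103 and the log2 fold change −1.86 to −1.59.

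STAT2, the partner of IRF9 in that complex, gave 86.5, 92.2, 94.6 and 88.3 CPM in Sep, 89.9, 75.5, 85.0 and 92.1 CPM in Susp, and 63.8, 81.0, 68.1 and 66.7 CPM in Adh. The Adh libraries were below all Sep libraries. The log2 difference from Sep was −0.37 (SE 0.10, adjusted p = 0.0439), with an interval that stayed inside 1.5-fold. PSMB8 gave 29.2, 30.0, 30.3 and 32.1 CPM in Adh, all above Sep, with a log2 difference of 0.50 (SE 0.12, adjusted p = 0.0362).

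**Figure D3:**
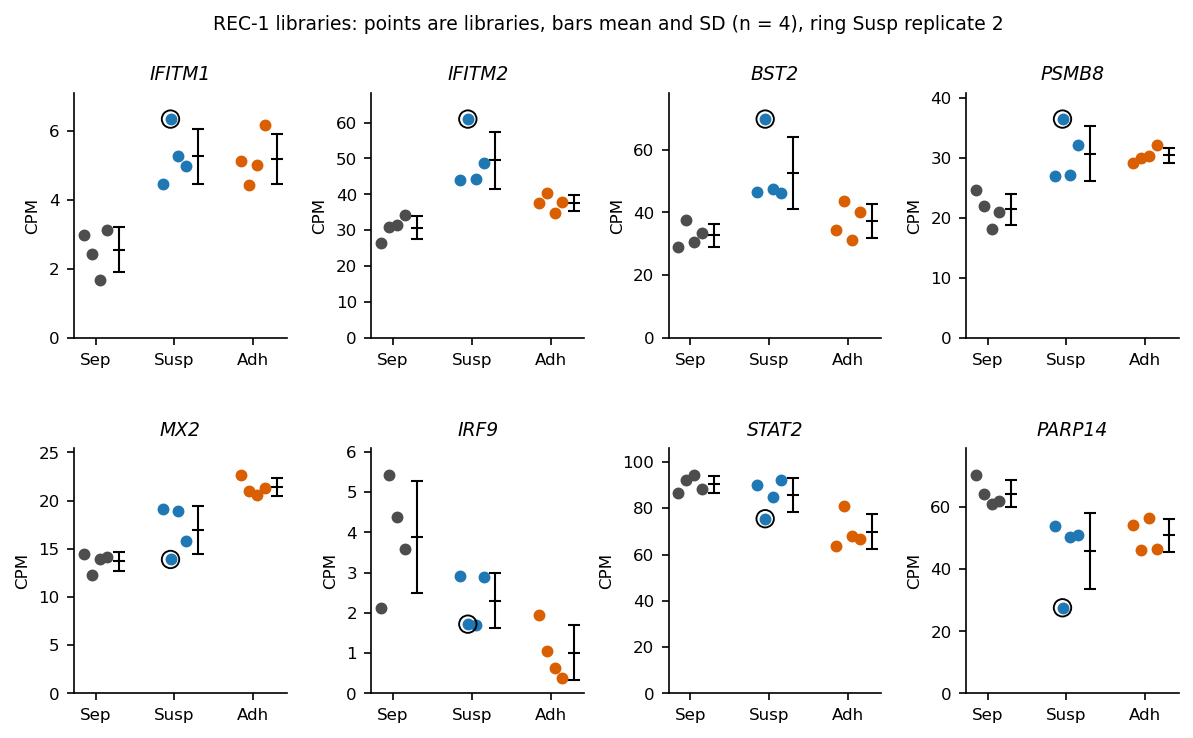
CPM per REC-1 library for 8 members, with points for libraries, bars for mean and SD (n = 4) and a ring around Susp replicate 2, each axis starting at 0. IFITM1 is higher in Susp and Adh than in Sep, MX2 is highest in Adh, IRF9 is lowest in Adh, and the ringed library is at the top for IFITM1, IFITM2, BST2 and PSMB8 and at the bottom for PARP14.

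Between adhered and suspended cells of the cocultures no tested member was called, where 0.778% of all tested genes were (0.109% higher and 0.669% lower). The libraries were not taken as pairs in this test. With the replicate number as a block no member was called either. None passed the adjusted p alone, which 0.941% of all genes did. At an unadjusted p under 0.05 there were 6 of 38 members (15.8%), against 18% of all genes, and DESeq2 called none either. Values did not overlap for 1 member that was higher and 2 that were lower, against 5.61% and 5.84% of all genes (11.4% in all). The 5 with the smallest p were BST2, IFITM2, STAT2, MX2 and IRF9. BST2 gave 34.3, 43.6, 31.3 and 40.0 CPM in Adh, with a log2 difference from Susp of −0.49 (adjusted p = 0.111), or −0.31 without Susp replicate 2 (adjusted p = 0.172). IFITM2 gave 37.5, 40.2, 34.9 and 37.8 CPM in Adh, with a difference of −0.39 (adjusted p = 0.113), or −0.26 without that library. Over the alternatives the adjusted p ran from 0.009 to 0.291 for BST2 and from 0.0377 to 0.271 for IFITM2, and the fold change stayed under 1.5 in all of them.

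For STAT2 the difference between Adh and Susp was −0.29 (adjusted p = 0.142), for MX2 0.34 (adjusted p = 0.188) and for IRF9 −1.07 (adjusted p = 0.212). Without Susp replicate 2 these were −0.33 (adjusted p = 0.0658), 0.27 (adjusted p = 0.248) and −1.16 (adjusted p = 0.182). The 95% interval lay wholly within 1.5-fold either way for 19 of the 38 members (50%), against 57% of all genes. Among these members were ADAR, EIF2AK2, IRF1, PARP12, PSMB8 and MX1. For the other 19 members a change of 1.5-fold or more lies within the interval, so its absence is not shown.

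**Figure D4:**
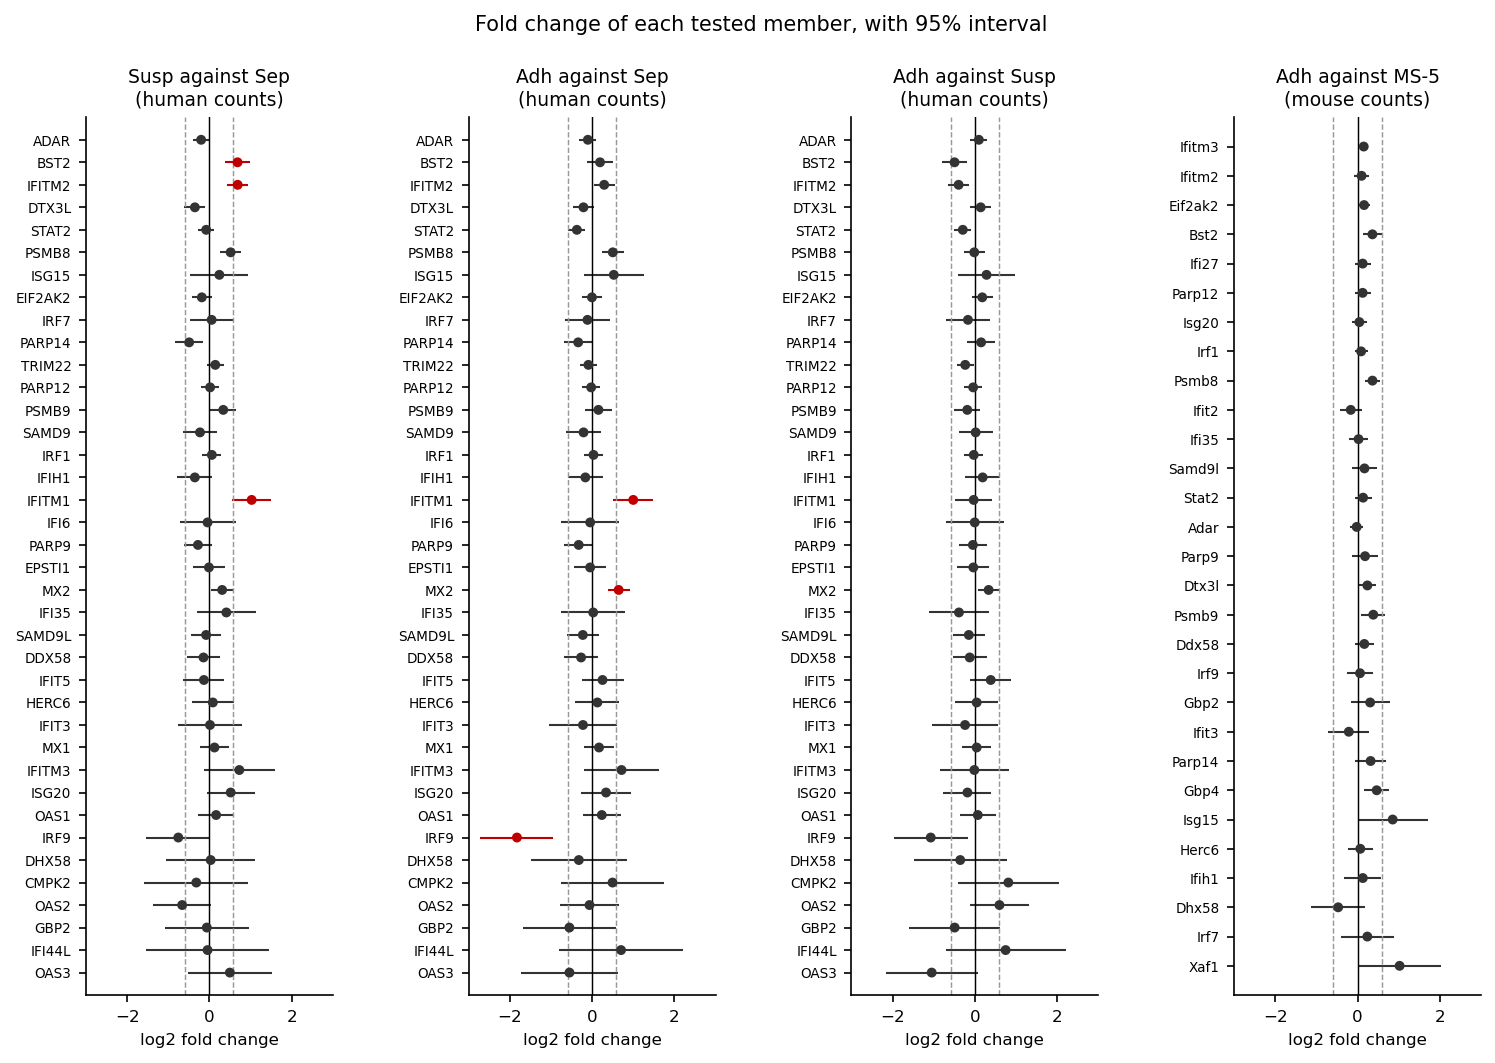
Log2 fold change of each tested member with its 95% interval in the 4 comparisons, members ordered by RPKM from the top, called members in red and dashed lines at 1.5-fold. Called members are IFITM1, IFITM2 and BST2 for Susp against Sep and MX2, IFITM1 and IRF9 for Adh against Sep, and intervals widen toward the members of low level at the bottom.

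The families of antiviral effectors were otherwise not called. Of the OAS synthases, OAS1 gave log2 differences of 0.16 and 0.235 for Susp and Adh against Sep, with adjusted p-values of 0.696 and 0.584, and OAS2 gave −0.66 (adjusted p = 0.317) and −0.06. IFIT3 and IFIT5, the tested IFIT genes, gave 0.01 and −0.13 in Susp and −0.22 and 0.25 in Adh, none called. ISG15 ranged from 3.35 to 5.26 CPM in Sep, 2.65 to 7.56 in Susp and 3.16 to 10.1 in Adh, and its differences of 0.24 and 0.53 had adjusted p-values of 0.720 and 0.420. The sensors IFIH1, DDX58 and DHX58 had adjusted p-values of at least 0.364 in each of those comparisons.

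PARP9 and DTX3L, which form a ubiquitin ligase complex and are read from neighbouring starts on chromosome 3, were not called. DTX3L gave a log2 difference of −0.35 in Susp (adjusted p = 0.178) and −0.21 in Adh (adjusted p = 0.353), and PARP9 gave −0.28 and −0.33. The remaining tested members, ADAR, CMPK2, EIF2AK2, EPSTI1, GBP2, HERC6, IFI35, IFI44L, IFI6, IFITM3, IRF1, IRF7, ISG20, MX1, OAS3, PARP12, PSMB9, SAMD9, SAMD9L and TRIM22, were likewise tested and not called in any REC-1 comparison. Their log2 differences from Sep ran from −0.55 (GBP2 and OAS3, Adh) to 0.73 (IFITM3, Susp).

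The pathway around these genes was read from lists of its other parts. None of 21 interferon ligand genes passed the filter in REC-1 libraries, where the highest count was 6, and none of the 15 in the mouse table did, with a highest count of 4. The 11 receptors, kinases and STAT genes, 12 of 16 nucleic acid sensors and adaptors and 7 of 9 negative regulators were tested in REC-1 cells, and none was called in any comparison.

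Of 37 other interferon-induced genes 30 were tested. This list was chosen with earlier results of these data known, so the shares of all genes beside it are description only. For Susp against Sep 2 were called higher and 1 lower, where 0.731% of all tested genes were called. For Adh against Sep 2 were called higher and 2 lower, where 2.4% of all tested genes were. For Adh against Susp none was called, where 0.778% of all tested genes were. The higher genes were the chemokines CXCL9 and CXCL10, which attract T cells through CXCR3. The lower genes were CIITA, the master activator of MHC class II genes, and, in Adh only, RNF213, a large ubiquitin ligase.

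CXCL9 gave 8.98, 10.9, 9.83 and 8.93 CPM in Sep, 20.4, 18.8, 20.5 and 23.5 CPM in Susp, and 20.9, 16.8, 20.6 and 14.9 CPM in Adh. Every coculture library was above every Sep library. The log2 increases were 1.11 in Susp (SE 0.14, adjusted p = 0.00056) and 0.92 in Adh (SE 0.14, adjusted p = 0.00128). CXCL10 gave 16.5, 14.6, 11.5 and 10.4 CPM in Sep, 30.9, 31.3, 23.8 and 24.5 CPM in Susp, and 26.6, 27.0, 22.6 and 31.8 CPM in Adh. Again no coculture library overlapped Sep, and the log2 increases were 1.05 (SE 0.16, adjusted p = 0.00237) and 1.02 (SE 0.16, adjusted p = 0.00161). Both chemokines stayed called in all 18 alternatives of each comparison.

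CIITA gave 42.5, 64.2, 39.0 and 55.4 CPM in Sep, 30.6, 24.9, 30.7 and 28.003 CPM in Susp, and 25.0, 29.4, 28.3 and 24.1 CPM in Adh. No coculture library reached the Sep range. CIITA fell by 0.82 on the log2 scale in Susp (SE 0.14, adjusted p = 0.00749) and by 0.91 in Adh (SE 0.15, adjusted p = 0.00177), and stayed called in all 18 alternatives of each. RNF213 gave 50.8, 97.4, 70.3 and 69.2 CPM in Sep, 64.7, 33.3, 47.2 and 55.2 CPM in Susp, and 40.8, 47.2, 32.5 and 27.1 CPM in Adh. Its Susp libraries overlapped both other groups, and it was not called there. In Adh it fell by 0.96 against Sep (SE 0.22, adjusted p = 0.0229). The call was lost without Sep replicate 2 or 3 or without Adh replicate 3 or 4, with adjusted p-values of 0.0511 to 0.1.

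In MS-5 cells no member was called between coculture and culture alone, where 0.205% of 12201 tested mouse genes were (0.041% higher and 0.164% lower). None passed the adjusted p alone, which 0.77% of all genes did. DESeq2 called none either, and at an unadjusted p under 0.05 there were 9 of 29 members (31%), against 11.3% of all genes. The log2 difference was above 0 for 25 of 29 members (86.2%), against 49.6% of all genes, and the median was 0.15, against −0.00. These members were measured in the same libraries and are not independent. Adh replicate 1 was the highest Adh library for 18 of the 29. Its summed level of tested members was 839 CPM, against 775 to 777 CPM in the other Adh libraries. With each library left out in turn, the median ran from 0.10 to 0.20. Values did not overlap for 5 members, all higher (17.2%), against 3.06% of all genes higher and 3.68% lower (6.74% in all). The 95% interval lay within 1.5-fold for 19 of the 29 (65.5%), against 79.7% of all genes. The Adh libraries hold RNA of both species and had more mouse counts than the MS-5 libraries, and the part of this in the difference was not tested.

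The members with the smallest p were Psmb8, Gbp4, Bst2, Ifitm3 and Psmb9. Psmb8 gave 24.5, 20.7, 25.4 and 24.1 CPM in MS-5 alone and 29.1, 29.9, 30.4 and 32.8 CPM in Adh. The groups did not overlap, and the log2 difference was 0.36 (SE 0.083, adjusted p = 0.0594), or 1.29-fold with an interval of 1.14 to 1.45. Its adjusted p ran from 0.00627 to 0.182 over the alternatives, and its fold change stayed under 1.5 in all of them. Psmb9, the partner subunit, gave 8.79, 5.77, 9.49 and 7.90 CPM alone and 11.1, 10.2, 10.1 and 10.7 CPM in Adh, with a difference of 0.38 (SE 0.14, adjusted p = 0.276).

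Gbp4, a GTPase that acts on intracellular pathogens, gave 7.11, 6.97, 6.83 and 6.26 CPM alone and 8.15, 9.43, 11.8 and 8.17 CPM in Adh, a difference of 0.47 (SE 0.14, adjusted p = 0.194). Bst2 gave 19.6, 15.8, 22.3 and 17.2 CPM alone and 24.0, 24.3, 21.3 and 27.5 CPM in Adh, a difference of 0.36 (SE 0.11, adjusted p = 0.194), and its groups overlapped. Ifitm3 gave 156, 144, 157 and 166 CPM alone and 172, 170.4, 173 and 177 CPM in Adh, a difference of 0.15 (SE 0.053, adjusted p = 0.261). Its interval of 0.04 to 0.26 stays well inside 1.5-fold.

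Among the other abundant members, Ifitm2 gave 37.5, 41.9, 37.4 and 39.4 CPM alone and 45.4, 40.4, 36.3 and 44.8 CPM in Adh, and Eif2ak2 gave 129, 123, 114 and 117 CPM alone and 142, 136, 139.7 and 123 CPM in Adh. Both overlapped between the groups. At the low end Xaf1 had 4, 10, 10 and 4 counts alone and 51, 30, 16 and 40 in the deeper Adh libraries, with a log2 difference of 1.02 and an interval of 0.02 to 2.03. Irf7 had 14, 8, 12 and 10 counts alone and 30, 30, 38 and 26 in Adh, and Dhx58 had 21, 13, 22 and 17 alone and 46, 28, 21 and 30 in Adh. Their log2 differences of 0.24 and −0.47 had adjusted p-values of 0.828 and 0.615.

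**Figure D5:**
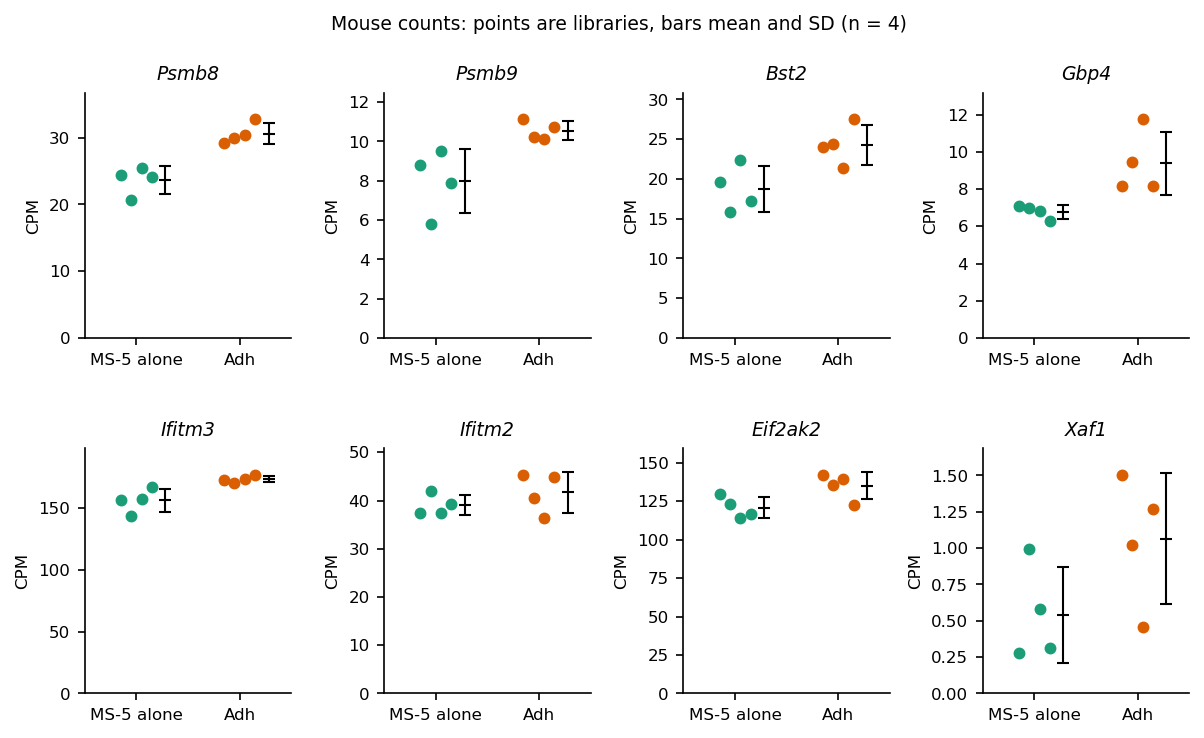
CPM from mouse counts for 8 members in MS-5 cells alone and in Adh libraries, with points for libraries and bars for mean and SD (n = 4), each axis starting at 0. Psmb8, Psmb9, Gbp4 and Ifitm3 do not overlap between the groups, and the other 4 do.

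The remaining tested mouse members, Adar, Ddx58, Dtx3l, Gbp2, Herc6, Ifi27, Ifi35, Ifih1, Ifit2, Ifit3, Irf1, Irf9, Isg15, Isg20, Parp12, Parp14, Parp9, Samd9l and Stat2, were not called. Their log2 differences ran from −0.21 for Ifit3 to 0.85 for Isg15, which had 2 to 12 counts per library alone. In the mouse lists, 16 of 29 interferon-stimulated genes that have no like human symbol were tested, with a median log2 difference of 0.17 and none called. None was called among 10 receptors, kinases and STATs, 9 sensors and adaptors, 8 negative regulators and 25 other induced genes, and Cxcl9 had no count in any library while Cxcl10 had 1 in all.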

How the data were processed

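Poly(A) RNA libraries were prepared with a TruSeq kit that does not keep strand and read as pairs. Human and mouse read pairs were separated with Xenome, aligned to GRCh38 or GRCm38 with STAR 2.5.1b, keeping uniquely mapped reads, and counted on concatenated exons with featureCounts (Subread 1.5.2). The values deposited by the authors were whole-number counts per gene, neither normalized nor filtered. Of counts from 1 to 20, 65 to 79.2% were even in human and 71.1 to 78.6% in mouse libraries, against 49 to 55.2% of counts of 1000 or more. Small counts therefore hold less independent information than their size implies. The share among large counts cannot show that large counts are spared. Totals ran from 7758979 to 21467832 human and from 10097555 to 34615602 mouse counts. The 20 columns of other samples were not used.

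Counts were filtered with filterByExpr, scaled by TMM and tested with edgeR 4.0.16 (glmQLFit and glmQLFTest) in R 4.3.3. The 12 REC-1 libraries formed 1 model, and the 4 Adh and 4 MS-5 libraries formed another on mouse counts. A call needed an adjusted p (Benjamini-Hochberg) of 0.05 or less together with a change of 1.5-fold or more. CPM used TMM-scaled library sizes, and RPKM used summed exon lengths from GENCODE (56948 of 58051 human and 49412 of 49671 mouse genes matched). The study counted reads on Ensembl annotation files. Exon bases that only the GENCODE release holds would lower RPKM, and the size of this was not tested. Log2 fold changes are edgeR's, with 95% intervals from its degrees of freedom. Alternatives were other normalizations, DESeq2 1.42.0, other filters, no fold minimum, the replicate number as a block, 2-group models, each library left out and, added after seeing the data, halved counts and a length correction. Code was tested on simulated data.

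Members and lists were chosen with earlier results of these data known. Values are given for called members, for the 5 with the smallest p in a comparison, for the 3 highest and 3 lowest by RPKM, for members whose call changed without 1 library, and for called genes of the other lists.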

Additional observations from a re-analysis of the deposited data

Results flagged for a closer look

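In 73 groups of 4 libraries examined, 3 held a library whose distance from the nearest other exceeded Dixon's 95% limit, and chance alone gives about 1 in 20. All 3 were Susp replicate 2 in human counts. ADAR stood at 377 CPM there and at 513 to 538 CPM in the other Susp libraries. PARP14 stood at 27.6 CPM, with 50.6 to 54.1 CPM in the others. BST2 stood at 69.8 CPM, with 46.1 to 47.5 CPM in the others. ADAR and PARP14 have 12242 and 10274 exon bases and BST2 has 1101, and the part of exon length was not tested beyond the correction described with the results.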

How the results depend on the processing

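Over 479 alternatives of 27 named results, 446 kept their direction and their side of the thresholds, 30 lost a call, 3 gained one and 0 changed direction. These results include members not called in the main fit and genes of the other lists. For Susp against Sep the call was lost in 7 of 18 alternatives for IFITM1, 6 of 18 for BST2 and 2 of 18 for IFITM2. For Adh against Sep it was lost in 4 of 18 for IFITM1, 6 of 17 for IRF9 and 1 of 18 for MX2. For Susp against Sep the members called higher were 3, and were 1 (IFITM2) in a model of those groups alone and 0 with the exon length trend removed. Leaving out each library gave 0 to 3, with a median log2 fold change from −0.058 to 0.064. For Adh against Sep the members called lower were 1, and were 0 with at least 10 counts required in every library, which leaves IRF9 out of the test, and 2 with no fold minimum. Leaving out each library gave 0 to 2 higher and 0 to 1 lower, with a median from −0.099 to 0.021. For Adh against Susp and for MS-5 cells the counts stayed at 0 throughout, with medians from −0.05 to 0.01 and from 0.10 to 0.20 when each library was left out. Halved counts kept 3 higher and 0 lower for Susp, and 2 higher and 1 lower for Adh. By CPM without length, 1 of the 3 highest REC-1 members stayed in the top 3.

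Libraries with the same number were not taken as pairs, since deviations correlated above 0.1 for 1, 3, 1 and 2 of 4 numbers in the comparisons of Susp with Sep, Adh with Sep, Adh with Susp and Adh with MS-5, and 1, 3, 2 and 3 of 4 correlated best with their own number. With the replicate number as a block the members called were 3 higher and 0 lower, 2 higher and 1 lower, 0 and 0, and 0 and 0, as without it, while all calls rose from 94 to 175, 309 to 384 and 100 to 281 in the REC-1 comparisons and from 25 to 45 in MS-5 cells. Counts of a few reads limit OAS3, IFI44L, GBP2, IRF9 and the members below the filter, where the cause of lost calls was not tested.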
